A study of Mus musculus with 9 samples.

Results

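Described here are 9 transcripts, Mreg, Dhtkd1, Upp1, Zfas1, Lrig1, A2m, Abcd2, Rgl2 and Cacna2d1, out of 18193 genes named on the arrays. They were chosen by name because their signal had differed between DKK1-treated and untreated retinal progenitor cells when arrays of the same replicate number were compared. Every probe set that the platform annotation gives to exactly 1 of these symbols was taken, which gave 18 probe sets. Of these, 16 passed the filter on dim signals, and all 9 genes kept at least 1 probe set. That difference is therefore a description here, with no test, and the tests concern the comparison with primary cells.

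The 9 arrays fall into 3 groups of 3. DKK1-treated ESC-RPCs are retinal progenitor cells differentiated from mouse 46C embryonic stem cells, a line made by gene targeting in E14Tg2a.IV cells, and received 1 ng/ml recombinant DKK1 for 1 day. Untreated ESC-RPCs came from the same line and received no DKK1. Both ESC-RPC groups share the steps before it: embryoid bodies grown for 3 days with the ALK4, 5 and 7 inhibitor SB431542, sorting of Sox1-positive cells (35.8%) at day 7, and culture with 10 µM DAPT, a blocker of Notch processing, and 20 ng/ml bFGF. Primary RPCs were taken from the dissociated neural retina of newborn C57 mice (postnatal day 1), and their source label calls them cultured. The ESC-RPCs represent 1 cell line, and the labels do not say how many animals each primary sample holds. The 3 samples of a group are called biological replicates in the labels, with no further word on separate cultures or days.

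DKK1 is a secreted protein that binds the LRP5 and LRP6 co-receptors and so blocks canonical Wnt signalling, in which beta-catenin and TCF or LEF factors switch on target genes. The 9 transcripts belong to no single pathway. Mreg encodes melanoregulin, a small protein in the transport of melanosomes and other lysosome-related organelles, and Cacna2d1 an auxiliary subunit of voltage-gated calcium channels. Dhtkd1 encodes a mitochondrial 2-oxoadipate dehydrogenase subunit of lysine and tryptophan breakdown, Upp1 the uridine phosphorylase that splits uridine, and Abcd2 a peroxisomal transporter of very long chain fatty acids. Lrig1 encodes a membrane protein that lowers the levels of ErbB receptors, Rgl2 an exchange factor that activates Ral GTPases downstream of Ras, and A2m the secreted protease inhibitor alpha-2-macroglobulin. Zfas1 is a long non-coding RNA that hosts small nucleolar RNAs and starts next to Znfx1 on the other strand.

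The promoter bases of 3 members are shown because they stand for the higher and the lower transcripts after DKK1 and for a large difference from primary cells. Each is the 250 bases before 1 annotated transcript start, from RefSeq on GRCm38.p6, 5′ to 3′ on the gene's strand, with CpG dinucleotides in capitals. The Mreg stretch lies at chr1:72212315-72212564 on the minus strand, Lrig1 at chr6:94700146-94700395 on the minus strand (partly within the longest annotated extent of the gene) and Rgl2 at chr17:33929644-33929893 on the plus strand (wholly within that extent of its gene).
Mreg: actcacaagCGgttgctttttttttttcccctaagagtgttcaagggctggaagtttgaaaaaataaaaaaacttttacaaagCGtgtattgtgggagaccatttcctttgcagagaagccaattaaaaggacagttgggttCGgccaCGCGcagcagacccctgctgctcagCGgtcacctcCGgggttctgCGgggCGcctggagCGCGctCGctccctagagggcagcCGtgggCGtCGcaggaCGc
Lrig1: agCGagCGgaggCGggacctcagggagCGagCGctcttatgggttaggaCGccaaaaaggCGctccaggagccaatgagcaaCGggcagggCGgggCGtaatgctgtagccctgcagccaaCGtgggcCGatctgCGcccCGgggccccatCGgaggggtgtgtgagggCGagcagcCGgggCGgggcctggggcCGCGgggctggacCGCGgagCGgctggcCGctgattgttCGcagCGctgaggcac
Rgl2: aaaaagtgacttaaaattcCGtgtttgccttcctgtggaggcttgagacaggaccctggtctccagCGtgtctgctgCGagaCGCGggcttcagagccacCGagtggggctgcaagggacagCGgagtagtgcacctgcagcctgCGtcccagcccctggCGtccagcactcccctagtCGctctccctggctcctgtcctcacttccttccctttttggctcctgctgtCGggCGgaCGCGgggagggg
These stretches hold 16 CpG dinucleotides for Mreg, 26 for Lrig1 and 14 for Rgl2. RefSeq windows of 300 bases, which add 50 bases after the start, were matched for 7 of the 9 members, with 10 windows in all. The windows of Zfas1 (47 CpG), Cacna2d1 (42) and Lrig1 (35) held the most CpG among them and those of Upp1 (7 to 13) the fewest, against a median of 7 over 32851 mouse windows. The TCF/LEF letters ATCAAAG, searched on both strands, were in 0 of the 10 member windows and in 3.73% of all windows. This says only that these letters are not in these windows.

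Signals are MAS5 intensities in linear units. Differences are on the log2 scale, with the SE of a limma fit over 13320 genes, each gene represented by 1 probe set. A gene was called at an adjusted p below 0.05 by the Benjamini-Hochberg method. Arrays give no read depth, and their number limits the precision. A signal below the 40th percentile of an array, at intensities of 44.7 to 52.9, was treated as not clearly above background.

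The treatment and the cell labels were checked once. The 3 Wnt pathway genes Nkd1, Axin2 and Lef1 had lower intensities on every treated array than on every untreated one. Of all 13320 genes, 6.73% were lower without overlap in the same way. Over the 9 arrays limma called 0 genes between treated and untreated cells, so none of these 3. In DKK1-treated against untreated cells Nkd1 averaged 509 ± 78.6 against 841 ± 7.38, Axin2 608 ± 39.7 against 791 ± 34.1, and Lef1 744 ± 37.6 against 1089 ± 165 (SD, n = 3 each). These 3 genes are no members and were picked with that result known. The Dkk1 transcript itself averaged 128 ± 23.9 in DKK1-treated and 134 ± 16.9 in untreated cells, with overlapping arrays. The retinal progenitor genes Rax and Six6 lay near background in ESC-RPCs, with mean intensities of 12.5 in DKK1-treated, 28.2 in untreated and 3939 in primary cells for Rax, and of 63.2, 46.0 and 4386 in the same order for Six6. Of 8 measured retinal progenitor markers 2 (Sfrp2 and Fgf15) were higher and 6 lower in ESC-RPCs than in primary cells by limma, and of 7 neural progenitor markers 4 were higher and 2 lower. Sox1, on which the ESC-RPCs were sorted, measured 2886 ± 333 in DKK1-treated, 2831 ± 59.8 in untreated and 24.4 ± 16.5 in primary cells (SD, n = 3 each). Actb 3-prime over 5-prime ratios, a measure of RNA integrity, were 1.33 to 1.37 on DKK1-treated, 1.32 to 1.37 on untreated and 1.22 to 1.26 on primary arrays.

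Across the 9 arrays, 5 members were higher in ESC-RPCs than in primary RPCs, 1 was lower and 3 did not pass the limma test, where 58.5% of all genes passed (28.7% higher and 29.7% lower). Lrig1, A2m, Upp1, Dhtkd1 and Mreg were the higher ones, from 11.1-fold for Lrig1 to 1.63-fold for Mreg, and Abcd2 was the lower one. Set beside DKK1, 6 members had higher and 3 lower intensities in treated than in untreated cells in all 3 replicate numbers. The same contrast chose them, in a fit described below. The mean differences after DKK1 ran from 0.22 to 0.58 on the log2 scale for the higher members and from -0.80 to -0.38 for the lower ones.

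**Figure D1:**
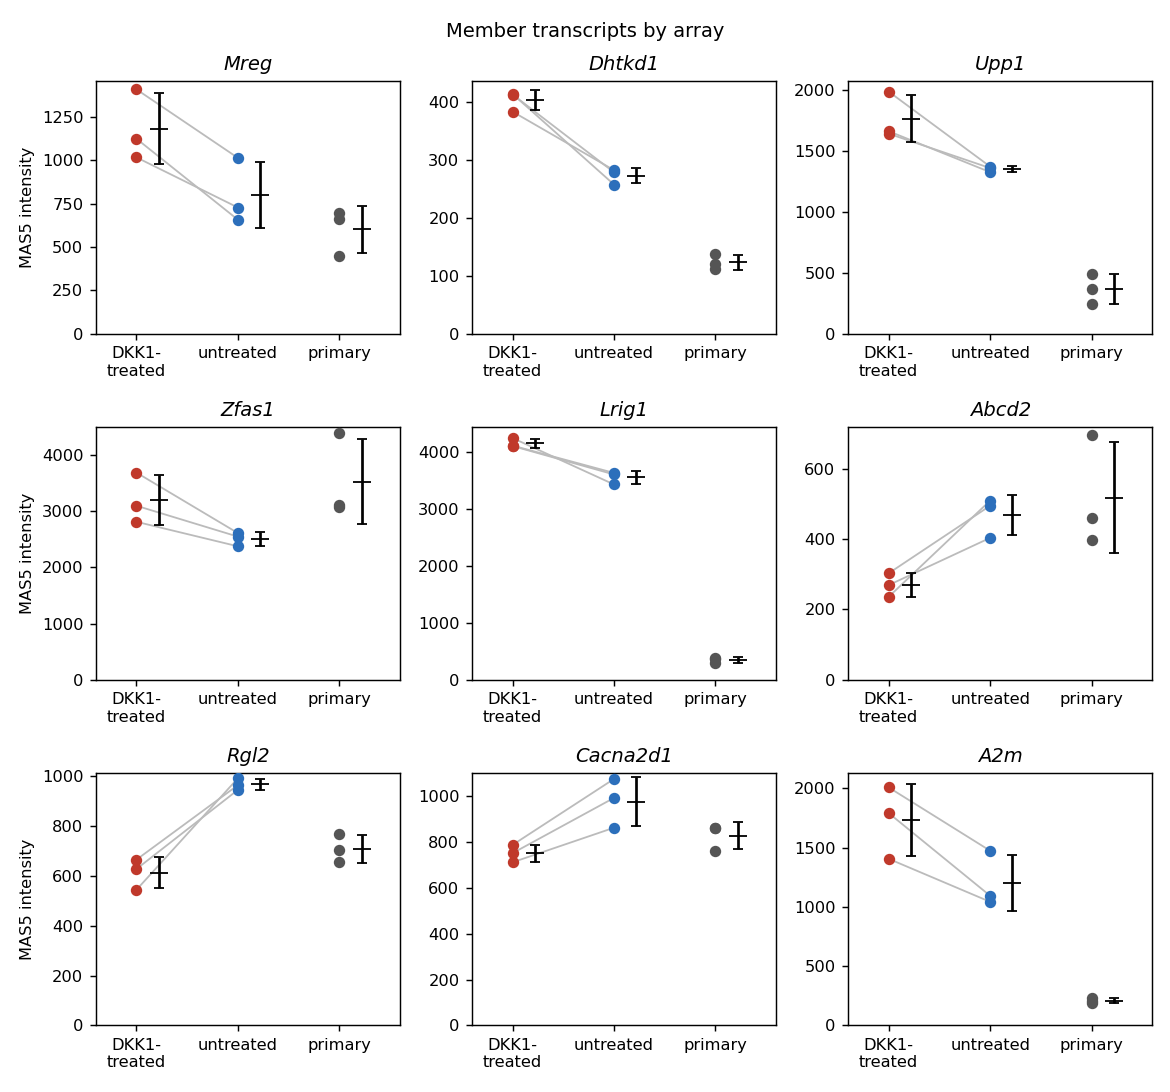
MAS5 intensity of the 9 members on every array. Points are arrays, grey lines join DKK1-treated and untreated arrays of one replicate number, and black marks are mean ± SD (n = 3). Lrig1, A2m, Upp1 and Dhtkd1 lie higher on all 6 ESC-RPC arrays than on all 3 primary arrays.

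The values that chose the members came from a limma fit of the 6 ESC-RPC arrays with the replicate number as a block. In that fit 0.488% of 13320 genes were called, 65 in all, and every member is among them by choice, 6 among the 29 genes called higher (0.218% of those tested) and 3 among the 36 called lower (0.270%). The member nearest to the threshold was Lrig1 at an adjusted p of 0.04999, and the nearest gene outside it was Rpl6 at 0.0505, in the same limma fit. Without replicate 2 the same fit called 8 genes and 1 member (Rgl2), and without replicate 3 it called 213 genes and 7 members. The blocked fit of 6 arrays called 0 genes without the intensity trend and 0 with the probe sets of a gene averaged. Without the block, limma called 0 genes over all 9 arrays, with 308 at an unadjusted p under 0.05. With the block kept on all 9 arrays it also called 0. Treated and untreated arrays did not overlap for 8 of the 9 members, 5 higher and 3 lower, against a background of 5.24% of genes higher and 6.73% lower, 12.0% in all. All 3 pairs lay on the higher side for 18.4% of genes and on the lower side for 19.0%, or 37.4% in all. Nothing is read from these counts, since the same contrast chose the members.

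**Figure D2:**
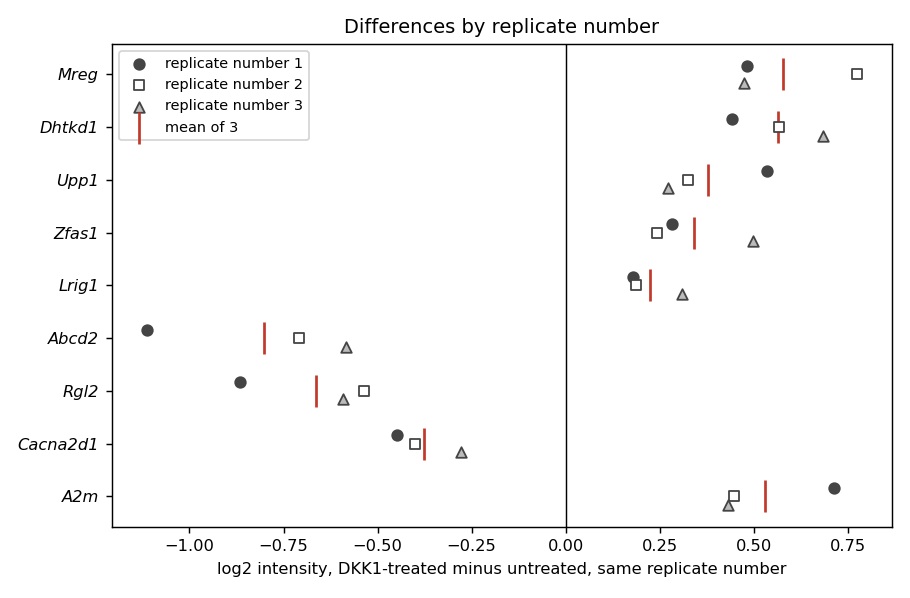
Log2 intensity of the DKK1-treated minus the untreated array of the same replicate number, for each member. Symbols are the 3 replicate numbers and red bars their mean. Every point of Mreg, Dhtkd1, Upp1, Zfas1, Lrig1 and A2m lies right of 0, and every point of Abcd2, Rgl2 and Cacna2d1 left of it.

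Lrig1, the ErbB receptor brake, was far higher in ESC-RPCs than in primary cells. Its probe set 1434210_s_at read 4113, 4106 and 4246 in DKK1-treated ESC-RPCs, 3633, 3606 and 3429.97 in untreated ESC-RPCs and 293, 385 and 364 in primary RPCs. The 6 ESC-RPC arrays lay far above the 3 primary arrays, and the treated arrays above the untreated ones by a narrow margin. Lrig1 was higher in ESC-RPCs by 3.48 ± 0.09 (SE, adjusted p = 9.45e-10 by limma) on the log2 scale, 11.1-fold. The difference was 2.001 (adjusted p = 6.24e-07 by limma) when its 3 kept probe sets were averaged. That average includes 1419928_at, which lay near background throughout. The DKK1-treated minus untreated differences by replicate number were 0.18, 0.19 and 0.31 in log2. In bulk samples such as these, fewer cells of a type and less RNA per cell cannot be told apart.

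A2m, the protease inhibitor, read 1792, 2008 and 1406 in DKK1-treated ESC-RPCs, 1094, 1474 and 1043 in untreated ESC-RPCs and 209, 227 and 186 in primary RPCs. It was the single member whose treated and untreated arrays overlapped, because untreated replicate 2 read higher than DKK1-treated replicate 3. Within each replicate number the treated array was still higher, by 0.71, 0.45 and 0.43 in log2. All ESC-RPC arrays lay above all primary arrays, and A2m rose by 2.79 ± 0.14 (SE; adjusted p = 9.74e-08) in log2 against primary cells, 6.92-fold.

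Upp1, the uridine-splitting enzyme, read 1991, 1665 and 1645 in DKK1-treated ESC-RPCs, 1374, 1329 and 1362 in untreated ESC-RPCs and 489, 249 and 368 in primary RPCs. Every ESC-RPC array was above every primary array, and DKK1-treated replicate 1 read highest of the 9. Upp1 was higher in ESC-RPCs by 2.12 ± 0.17 (SE; adjusted p = 2.88e-06) in log2, 4.35-fold. By replicate number the treated minus untreated differences were 0.53, 0.33 and 0.27.

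Dhtkd1, the 2-oxoadipate dehydrogenase subunit, read 383, 413 and 414 in DKK1-treated ESC-RPCs, 282, 278 and 257 in untreated ESC-RPCs and 111, 137 and 121 in primary RPCs. The 3 groups did not overlap, with treated cells highest, untreated cells between and primary cells lowest. The difference between ESC-RPCs and primary cells was 1.43 ± 0.11 (SE; adjusted p = 2.36e-06) in log2, 2.70-fold. By replicate number DKK1-treated minus untreated was 0.44, 0.57 and 0.68.

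Mreg, the organelle transport gene, read 1016, 1123 and 1408 in DKK1-treated ESC-RPCs, 727, 657 and 1013 in untreated ESC-RPCs and 446, 659.6 and 698 in primary RPCs. Replicate 3 was high in both ESC-RPC groups, and the lowest untreated array lay within the primary range. Mreg was higher in ESC-RPCs by 0.70 ± 0.18 (SE; adjusted p = 0.00674), 1.63-fold. Taken separately, the limma difference from primary cells was 0.99 ± 0.21 for DKK1-treated and 0.41 ± 0.21 for untreated cells (SE). For Mreg and every other member these share the primary arrays, and the gap between them is the DKK1 contrast that chose the member, so they are given as values with no test. For Mreg that contrast was 0.48, 0.77 and 0.47 by replicate number.

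Zfas1, the small nucleolar RNA host, was the member that DKK1-treated cells held higher than untreated cells while the mean of both lay below primary cells. It read 3099, 2813 and 3689.7 in DKK1-treated ESC-RPCs, 2549, 2376 and 2612 in untreated ESC-RPCs and 3081, 3107 and 4405 in primary RPCs. The untreated arrays all lay below the primary arrays, and the treated arrays overlapped with them. Over both ESC-RPC groups the difference was -0.30 ± 0.12 (SE; adjusted p = 0.0577) in limma and did not pass the threshold, with adjusted p between 0.0148 and 0.288 over all alternatives. It passed with the replicate block on 9 arrays (adjusted p = 0.0148 by limma), with quantile normalisation, and without DKK1-treated replicate 3, primary replicate 1 or primary replicate 2. Without primary replicate 3 the difference was -0.13 (adjusted p = 0.288 by limma). Against primary cells alone the difference was -0.13 ± 0.14 for DKK1-treated and -0.47 ± 0.14 for untreated cells (SE). DKK1-treated minus untreated was 0.28, 0.24 and 0.50 by replicate number. Znfx1, whose gene lies beside Zfas1 on the other strand, measured 85.1 ± 14.5 in DKK1-treated, 99.5 ± 6.20 in untreated and 125 ± 16.7 in primary cells (SD, n = 3 each) and was not called against primary cells (difference -0.44 ± 0.18, adjusted p = 0.0534 by limma).

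Abcd2, the peroxisomal transporter, had lower intensities after DKK1 on its representative probe set. Probe set 1438431_at read 236, 303 and 269 in DKK1-treated ESC-RPCs, 509.6, 495 and 403 in untreated ESC-RPCs and 398, 459.6 and 696 in primary RPCs. The treated arrays lay below all untreated and all primary arrays, while untreated and primary arrays overlapped. DKK1-treated minus untreated was -1.11, -0.71 and -0.58 in log2, with a mean of -0.80, against -0.43 when its 3 kept probe sets were averaged. Against primary cells Abcd2 was lower in ESC-RPCs by limma (-0.51 ± 0.17, adjusted p = 0.0275). That call ended without primary replicate 3 (difference -0.27, adjusted p = 0.131 by limma), without DKK1-treated replicate 1 (adjusted p = 0.0587), without untreated replicate 3 (adjusted p = 0.0563), with arrays set to one median (adjusted p = 0.0575) and with the mean of its probe sets (adjusted p = 0.0792). Over all alternatives its adjusted p ran between 0.0106 and 0.131. Group by group, the difference from primary was -0.91 ± 0.20 for DKK1-treated and -0.11 ± 0.20 for untreated cells (SE).

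Rgl2, the Ral exchange factor, read 544, 665 and 627 in DKK1-treated ESC-RPCs, 991, 964 and 944 in untreated ESC-RPCs and 766, 703 and 655 in primary RPCs. The 3 untreated arrays lay close together and above all treated and all primary arrays, which overlapped. DKK1-treated minus untreated was -0.87, -0.54 and -0.59 in log2. Over both ESC-RPC groups Rgl2 was not called against primary cells (difference 0.12 ± 0.09, adjusted p = 0.296 by limma), and the single groups lay on either side of the primary level. The difference from primary was -0.21 ± 0.11 for DKK1-treated and 0.45 ± 0.11 for untreated cells (SE).

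Cacna2d1, the calcium channel subunit, read 787, 751 and 711 in DKK1-treated ESC-RPCs, 1075, 992 and 862 in untreated ESC-RPCs and 859, 862 and 759.8 in primary RPCs on its representative probe set 1433643_at. All treated arrays lay below all untreated arrays, and the primary arrays overlapped with both. DKK1-treated minus untreated was -0.45, -0.40 and -0.28 in log2. On this probe set the difference from primary cells over both ESC-RPC groups was 0.05 ± 0.10 (SE; adjusted p = 0.685) in limma. The mean of the 4 kept probe sets gave -0.74 (adjusted p = 0.00163 by limma). That mean includes 1440397_at, which was below background on all ESC-RPC arrays. Group by group, 1433643_at differed from primary cells by -0.14 ± 0.11 for DKK1-treated and 0.24 ± 0.11 for untreated cells (SE).

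**Figure D3:**
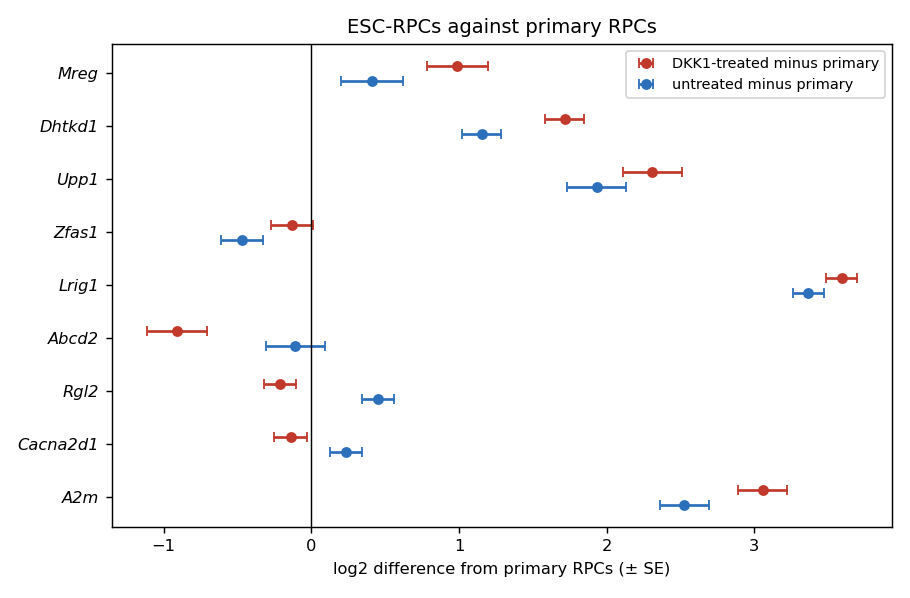
Log2 difference of DKK1-treated and of untreated ESC-RPCs from the same 3 primary arrays, with the SE from limma, for each member. Lrig1, A2m, Upp1 and Dhtkd1 lie far right of 0 in both groups, and Rgl2 and Cacna2d1 lie left of 0 for treated and right of 0 for untreated cells.

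Over all genes, limma called 52.8% between DKK1-treated and primary cells (26.0% higher and 26.8% lower). Between untreated and primary cells it called 53.0% (26.1% higher and 26.9% lower). The members are not counted in these single-group comparisons, because the gap between the comparisons is the contrast that chose them. For both ESC-RPC groups together limma called 6 of 9 members against 58.5% of all genes, a share near the background. The median size of the difference from primary cells was 0.70 over the members and 0.44 over all genes. ESC-RPC and primary arrays did not overlap for 4 members, all higher in ESC-RPCs, where 26.0% of all genes were higher without overlap and 27.3% lower, 53.3% in all.

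Markers of other cells moved with the same comparison. All 8 measured mesenchyme markers rose in ESC-RPCs in limma, with a summed intensity of 17921 to 21587 in DKK1-treated, 17699 to 22001 in untreated and 499 to 737 in primary arrays. All 5 measured astrocyte markers rose as well, with sums of 17023 to 20359 in DKK1-treated, 17219.7 to 20193 in untreated and 1075 to 1549 in primary arrays. All 9 pluripotency markers rose, with sums of 21779.8 to 23704 in DKK1-treated, 18683 to 22834 in untreated and 482 to 886 in primary arrays. All 6 measured photoreceptor markers fell, with sums of 6562 to 7639.6 in DKK1-treated, 6414 to 7817 in untreated and 39315 to 55334 in primary arrays, and Crx, Nrl and Sag were below background on all ESC-RPC arrays. Of 6 measured microglia and macrophage markers 5 fell, with sums of 189.6 to 271 in DKK1-treated, 191 to 211 in untreated and 857 to 1391 in primary arrays, and C1qa, C1qb and Ctss were below background on all ESC-RPC arrays. Of 5 endothelial and pericyte markers 1 rose and 3 fell, with sums of 1007 to 1234 in DKK1-treated, 1018 to 1046 in untreated and 6300.1 to 8151 in primary arrays, and Rgs5 was below background on all ESC-RPC arrays. Of 10 pigment epithelium markers 6 did not pass the filter on dim signals, Rpe65, Tyr and Tyrp1 among them, 2 fell (Rlbp1 and Dct) and 2 were not called. Of 7 Müller glia markers 4 rose and 3 fell. The part of these cells in the members' differences was not tested. Between DKK1-treated and untreated cells all 9 pluripotency markers had higher mean intensities. Of these, 3 (Tdgf1, Zfp42 and Nr0b1) were called in the blocked fit. That fit called 0.488% of all genes, and 0 genes without the intensity trend or with the probe sets of a gene averaged. Of the 8 measured retinal progenitor markers 2 had higher and 6 lower means, and the blocked fit called Six3 higher (0.53, adjusted p = 0.00602 by limma) and Fgf15 lower (-0.25, adjusted p = 0.0370). The part of these markers in the members' shifts was not tested.

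Only 3 members have more than 1 probe set, and their probe sets did not move alike. The second Lrig1 probe set, 1449893_a_at, read 3428, 3245 and 3291 in DKK1-treated ESC-RPCs, 3536, 3219.7 and 3156 in untreated ESC-RPCs and 289, 388 and 381 in primary RPCs. Treated and untreated arrays overlapped there, with differences of -0.04, 0.01 and 0.06 by replicate number, against 0.18, 0.19 and 0.31 for 1434210_s_at. Averaged over its kept probe sets, Lrig1 had a DKK1-treated minus untreated difference of -0.0805. The difference from primary cells was 3.24 ± 0.10 (SE; adjusted p = 1.40e-09) in log2 for this probe set, in a limma fit of 29052 single probe sets. The third, 1419928_at, lay near background throughout, with readings between 20.5 and 83.2, and was above it on 4 of 9 arrays.

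For Abcd2, probe set 1419748_at read 183, 221 and 162 in DKK1-treated ESC-RPCs, 207, 169 and 197 in untreated ESC-RPCs and 210.3, 237 and 353 in primary RPCs. Its treated and untreated arrays overlapped, with differences of -0.18, 0.38 and -0.28 that changed sign between replicate numbers. Probe set 1456812_at read 112, 147 and 182 in DKK1-treated ESC-RPCs, 163, 246 and 192 in untreated ESC-RPCs and 153, 160.3 and 284 in primary RPCs. It was lower in the treated array of every pair, with differences of -0.54, -0.74 and -0.08, with overlap between the groups. The fourth, 1439835_x_at, was below background on all 9 arrays. Against primary cells 1419748_at was lower by limma (-0.46 ± 0.18, adjusted p = 0.0464) and 1456812_at was not called (-0.18 ± 0.23, adjusted p = 0.547).

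The 5 Cacna2d1 probe sets disagreed in the comparison with primary cells. Probe set 1440397_at read 30.9, 28.6 and 30.8 in DKK1-treated ESC-RPCs, 26.3, 33.9 and 30.0 in untreated ESC-RPCs and 315, 259.6 and 287 in primary RPCs. All 6 ESC-RPC arrays lay below background there and all 3 primary arrays well above it. Taken as a bound, ESC-RPCs were at least 6.10-fold lower. The limma test used the readings as they are (difference -3.25 ± 0.20, SE, adjusted p = 2.01e-07), and the bound itself was not tested. Probe set 1449999_a_at went the other way, at 126, 164 and 87.2 in DKK1-treated ESC-RPCs, 153, 131 and 112 in untreated ESC-RPCs and 70.4, 105 and 67.1 in primary RPCs, and was higher in ESC-RPCs (0.67 ± 0.23, adjusted p = 0.0301 by limma). The representative probe set 1433643_at was not called, as given above, while the mean of the 4 kept probe sets was. The remaining ones, 1441608_at and 1425861_x_at, were near or below background. After DKK1, 1449999_a_at differed by -0.29, 0.32 and -0.36 and 1440397_at by 0.23, -0.24 and 0.04, with signs that varied between replicate numbers. Where on the transcript these probe sets lie was not analysed here.

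**Figure D4:**
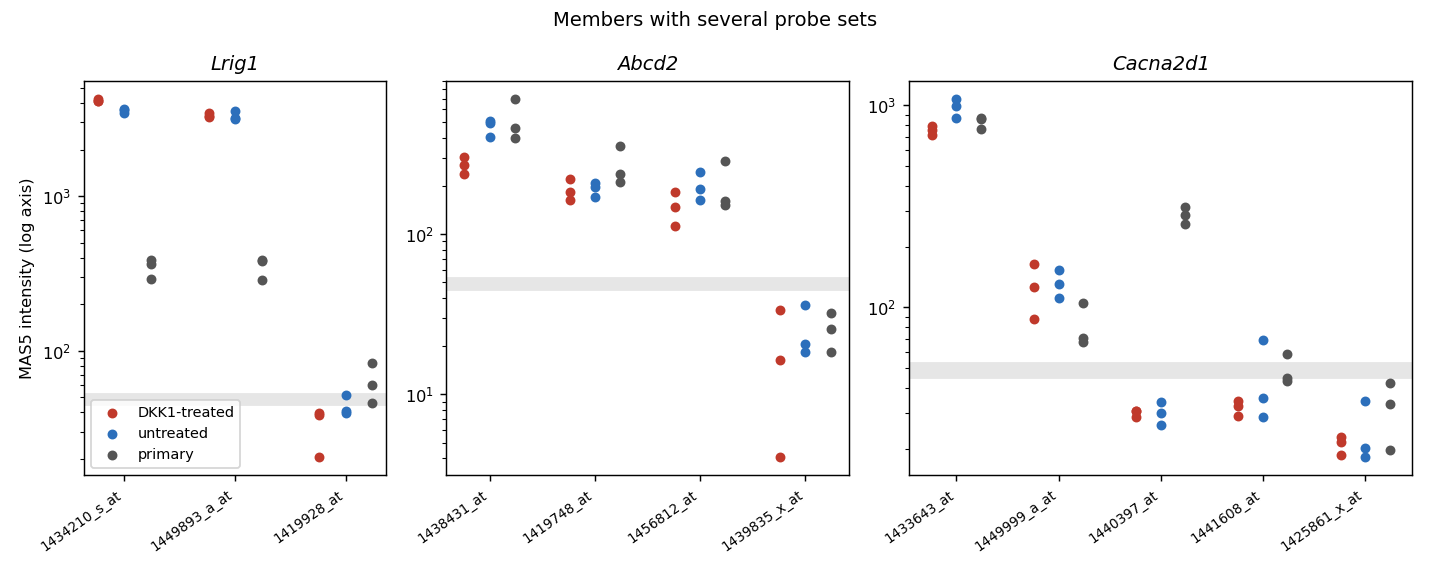
Intensity on a log axis of every probe set of Lrig1, Abcd2 and Cacna2d1, with 1 point per array and the grey band marking the range of the 40th percentiles. The Cacna2d1 probe set 1440397_at lies under the band in both ESC-RPC groups and near 287 in primary cells.

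Of the 16 kept probe sets of the members, 10 were called between ESC-RPCs and primary cells in the probe set fit, 7 higher and 3 lower, where 53.4% of all kept probe sets were called (26.1% higher and 27.3% lower). Probe sets of 1 gene share its RNA and are not independent.

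Genes that share a role with each member were taken from written lists of 144 entries, of which 112 were tested. Between ESC-RPCs and primary cells 43 rose, 28 fell and 41 were not called, with a median difference of 0.15 against -0.01 over all genes. Of all genes 28.7% rose and 29.7% fell, which is the background for the counts of each list below. Between DKK1-treated and untreated cells 0 of the 112 were called by limma, either over 9 arrays or in the blocked fit of 6. Over all genes these fits called 0 and 0.488%, so a count of 0 is near the background.

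Of 17 tested genes of organelle transport and pigment, the setting of Mreg, 5 rose, 4 fell and 8 were not called in ESC-RPCs against primary cells (median -0.08). Hps1, a subunit of a lysosome biogenesis complex, fell by 1.33 while Lyst, a lysosomal trafficking regulator, fell by 1.10 in log2. Rab38, a GTPase of melanosome formation, rose by 1.52 ± 0.19. Of 15 calcium channel subunits 5 rose, 3 fell and 7 were not called (median 0.27). Cacna1h, a low-voltage-activated channel pore, measured 201 ± 43.8 in DKK1-treated, 198 ± 31.3 in untreated and 929 ± 98.3 in primary cells. Cacna2d3, a relative of Cacna2d1, measured 692 ± 194 in DKK1-treated, 536 ± 48.4 in untreated and 190.1 ± 25.3 in primary cells and rose by 1.67 ± 0.16. Cacna2d2 was not called (0.17 ± 0.17), and the L-type pore gene Cacna1d was at least 2.87-fold lower in ESC-RPCs.

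Of 13 genes of lysine and 2-oxoacid breakdown, the setting of Dhtkd1, 5 rose, 3 fell and 5 were not called (median 0.16). Pipox, an oxidase of the pipecolate branch of lysine breakdown, rose by 2.14 ± 0.26. Of the pyruvate dehydrogenase subunits Pdha1 rose by 1.03 ± 0.09 and Pdhb fell by 0.36. Of 12 pyrimidine genes, the setting of Upp1, 8 rose, 1 fell and 3 were not called (median 0.52, or 0.49 with Dpys at its bound). Tk1, the thymidine kinase of dividing cells, measured 1243 ± 185 in DKK1-treated, 1403 ± 198 in untreated and 577 ± 47.7 in primary cells. Dhodh, an enzyme of pyrimidine synthesis, rose by 1.22 ± 0.13 and Dpyd, which starts uracil breakdown, by 1.04 ± 0.14. Upp2, the second uridine phosphorylase, did not pass the filter on dim signals.

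Of 12 peroxisomal genes, the setting of Abcd2, 6 rose, 2 fell and 4 were not called (median 0.15). Abcd3, another transporter of the same family, measured 3232 ± 176 in DKK1-treated, 3104 ± 126 in untreated and 2106 ± 187 in primary cells and rose by 0.59 ± 0.07. Acaa1a, a thiolase of peroxisomal fatty acid oxidation, rose by 1.03 ± 0.15, and Acot8, a peroxisomal thioesterase, fell by 0.83. Of 11 genes around Lrig1, 5 rose, 5 fell and 1 was not called (median 0.17). Its relative Lrig3 measured 421 ± 56.1 in DKK1-treated, 408 ± 46.8 in untreated and 127 ± 16.3 in primary cells and rose by 1.70 ± 0.14, while Lrig2 fell by 0.27. The receptor Ret fell by 2.49, and the ubiquitin ligase gene Cblb rose by 0.84 ± 0.08.

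Of 13 Ral pathway genes, the setting of Rgl2, 3 rose, 4 fell and 6 were not called (median 0.10). Rgl3, a further Ral exchange factor, measured 80.2 ± 8.69 in DKK1-treated, 73.7 ± 30.5 in untreated and 395 ± 96.8 in primary cells and fell by 2.38. Ralgds rose by 0.29 ± 0.10 and Rgl1 was not called (0.48 ± 0.22). Ralgapa2, a subunit of a complex that turns Ral off, rose by 0.67 ± 0.11, and Ralgapa1 fell by 0.45. Of 15 small nucleolar RNA hosts and Znfx1, the setting of Zfas1, 4 rose, 6 fell and 5 were not called (median -0.39). Gas5 measured 5039 ± 287 in DKK1-treated, 5186 ± 323 in untreated and 8226 ± 586 in primary cells and fell by 0.69, while Snhg4 rose by 1.51 ± 0.11 and Snhg14 by 1.26 ± 0.13. Of 4 tested genes around A2m, 2 rose and 2 were not called (median 0.70, or 0.16 with Hc at its bound). Lrp1, the receptor that clears bound alpha-2-macroglobulin, measured 903 ± 101 in DKK1-treated, 864 ± 80.1 in untreated and 323 ± 67.8 in primary cells and rose by 1.47 ± 0.14. Hc, which encodes complement C5, was at least 1.31-fold higher, and Cd109 was not called (-0.23 ± 0.23). Pzp, a macroglobulin related to A2m, did not pass the filter on dim signals.

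**Figure D5:**
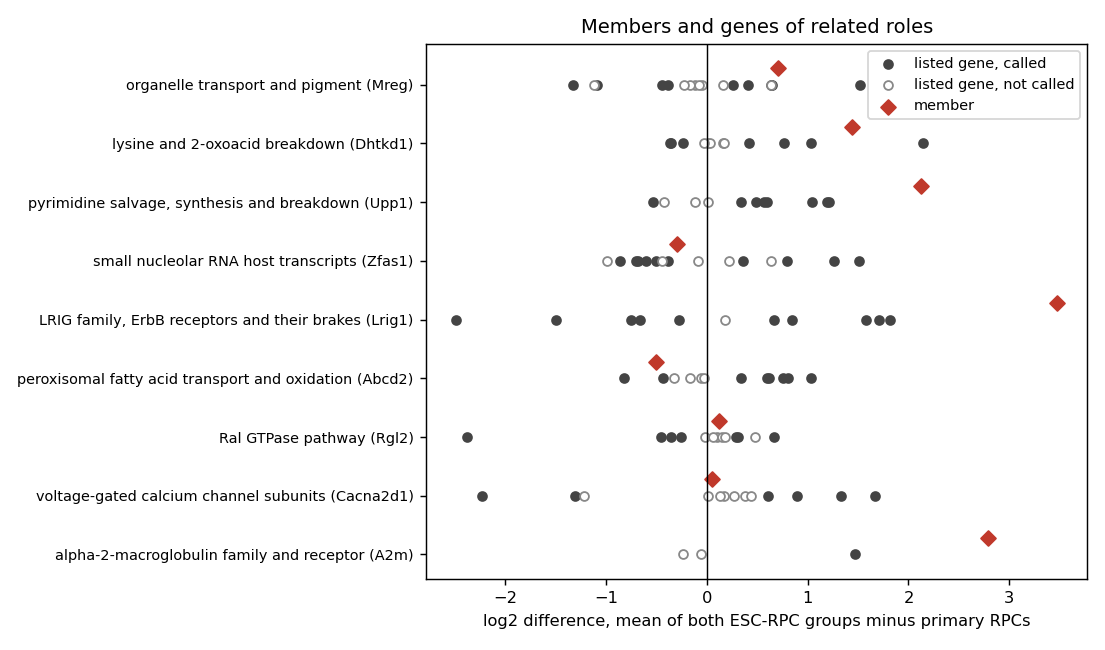
Log2 difference of the mean of both ESC-RPC groups from primary RPCs for the genes of each role list and the member it belongs to. Filled points passed the limma test, open points did not, diamonds are members, and the 5 genes with only a bound are left out. Lrig1 lies right of the other genes of its list, and Cacna2d1 and Rgl2 near 0.

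The genes with the pattern most like each member over the 9 arrays were found by Pearson correlation of log2 values. The arrays fall into 2 clusters, with profiles of ESC-RPC and primary arrays correlated at 0.825 to 0.836 and those within a group at 0.964 to 0.984, so the points are not independent and no p is given. For Lrig1 they were Esrp1 (r = 0.999) and Platr10 (r = 0.998), for A2m Ankfy1 (r = 0.994) and Reps2 (r = 0.994), for Upp1 Plac8 (r = 0.995) and Npas3 (r = 0.994) and for Dhtkd1 Dock6 (r = 0.994) and Mcc (r = 0.983). For Mreg they were Dedd (r = 0.953) and Tmub1 (r = 0.933), for Zfas1 Xpo7 (r = 0.945) and Pnpla7 (r = 0.943) and for Abcd2 Xpc (r = 0.939) and Pygo1 (r = 0.936). The values were lower for Rgl2, with Ipo11 (r = 0.860) and Lrrc59 (r = 0.845), and for Cacna2d1, with Tbl1x (r = 0.837) and Kcnk13 (r = 0.825).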

How the data were processed

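Biotin-labelled cRNA from 9 samples was hybridised to Affymetrix 3-prime arrays. The authors deposited 1 intensity per probe set and array, made with MAS5 per the submitters' processing notes; its version and settings are not given in the sources used here. The deposited intensity values are linear, and in each column the mean after trimming 2% at either end was 500.003, so arrays share that scale. Of 45101 probe sets, 64 controls, 932 with several genes and 9160 with no gene were left out of gene tests. Log2 was taken with no further normalisation. A probe set was kept if above its array's 40th percentile on at least 3 arrays (29052 kept), and each of 13320 genes was represented by its brightest kept probe set (mean log2). Gene symbols are those of the platform annotation, updated by gene ID for listed genes.

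Linear models with 1 mean per group and an intensity trend were fitted with limma 3.58.1 (R 4.3.3) over the 9 arrays, and two-sided p-values were adjusted by Benjamini-Hochberg at 0.05. ESC-RPCs against primary cells means the average of both ESC-RPC groups. Where a group lay below its percentiles, the fold is a bound against them. This fit, without a block, was run on simulated data with independent noise and no replicate effect. The blocked fit that chose the members was not run on simulated data. Deviations from the group mean correlated at 0.123, 0.195 and 0.318 across genes for ESC-RPC arrays with the same replicate number. Those of other numbers correlated at -0.234 to 0.0681. Such deviations cancel out within a group, so these correlations depend on each other and are no test of pairing. The numbers were taken to pair the ESC-RPC arrays on this ground, and the labels do not state it. The members and lists were chosen with earlier results of these data known. Named were all members, the 3 genes with the smallest adjusted p in each role list, the nearest relatives, the 2 most correlated genes per member (clone-type names left out) and the marker and treatment checks. Role genes without a value were dim or are not analysed here. P-values set a difference against the spread between these samples, and that spread may be technical.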

Additional observations from a re-analysis of the deposited data

How the results depend on the processing

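The count of genes called between ESC-RPCs and primary RPCs stayed within 1.5 times of 7787 under every alternative run (7101 to 7919), and so did the counts for DKK1-treated against primary (5922 to 7130), untreated against primary (5939 to 7141) and single probe sets (13682 to 15725). Between DKK1-treated and untreated cells 0 genes were called over 9 arrays, 0 with the replicate block on 9 arrays, 1 without the intensity trend (Zfp429, named after its value was seen) and 65 with the replicate block on the 6 ESC-RPC arrays. That paired count ranged from 8 without replicate 2 to 213 without replicate 3, and was 32 with quantile normalisation, 21 with no filter, 0 without the trend and 0 when probe sets of a gene were averaged; these settings within the paired fit were chosen after seeing the data. Of the 9 members, 1 (Rgl2) was among the calls without replicate 2, 7 without replicate 3, 5 with quantile normalisation, 3 with no filter and 0 in the last 2 settings. The members were chosen from this same fit, so these counts are no test of them. With the mean of its probe sets, the difference after DKK1 was -0.0805 for Lrig1, against 0.22. The difference from primary was then -0.74 for Cacna2d1 (adjusted p = 0.00163 by limma), against 0.05. These averages include probe sets that did not move with the representative one. For Lrig1 they include 1419928_at, near background throughout, while the brighter 1449893_a_at differed by 0.01 after DKK1 and by 3.24 from primary cells. For Cacna2d1 they include 1440397_at, below background on all ESC-RPC arrays. Leaving out 1 array at a time, the Cacna2d1 difference from primary ranged from -0.0120 (without primary replicate 3) to 0.0913. With the mean of its probe sets the difference after DKK1 was -0.43 for Abcd2 and -0.21 for Cacna2d1. The differences from primary of Lrig1, A2m, Upp1, Dhtkd1 and Mreg kept direction and call in all alternatives run, though that of Lrig1 was 2.001 with the mean of its probe sets, against 3.48, and then below those of A2m (2.79) and Upp1 (2.12). The block on 9 arrays changed the call of no member except Zfas1. Low signals limit the probe sets near the 40th percentile. Some folds of such probe sets are given as bounds, while the limma tests and calls used the readings as they are.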
